A study of Mus musculus with 6 samples.

Results

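Genes that encode enzymes of phosphoinositide, phospholipid and fatty acid metabolism, with a few of their adaptors, were compared between activated CD4+ T cells of WT mice and of mice whose T cells lack UTX. They were chosen by gene symbol alone, as every listed gene whose symbol starts with the stem of one of these enzyme families (for example Pik3, Plcb, Dgk, Acad or Elovl). The stems took in 57 of the 4162 genes in the deposited table. One of the 57, Gpatch4, is caught only because its symbol begins like that of the glycerol-phosphate acyltransferases. It encodes a G-patch domain protein and is no lipid enzyme, so it is counted apart, which leaves 56 lipid enzyme genes. In the GENCODE M21 annotation 193 protein-coding genes carry such symbols, and those without a row in the table, all PIP4 and PIP5 kinases, phospholipases D and phospholipases C gamma among them, were not analysed here.

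The cells were naive CD4+ T cells isolated from spleen with magnetic beads and stimulated for 48 h with anti-CD3 on the plate and anti-CD28 in solution. One group of 3 mice was B6 WT and the other group of 3 mice was B6 UTX TCD, in which T cells lack UTX, the product of Kdm6a that removes methyl groups from lysine 27 of histone H3. The sources used here give neither the Cre line nor the deleted exons, nor the age and sex of the mice. The comparison addresses which genes differ when activated T cells lack UTX, and the title of the series places it in the setting of hypoxia sensing.

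Phosphoinositides are membrane lipids whose inositol ring is phosphorylated and dephosphorylated by dedicated enzymes. In T cells, the receptor activates PI 3-kinase, whose lipid product recruits kinases to the membrane, and phospholipase C, which cuts a phosphoinositide into diacylglycerol and an inositol phosphate. Lipid phosphatases and diacylglycerol kinases remove these messengers and so end the signal. Fatty acids are activated to acyl-CoA before they are oxidised, elongated, desaturated or built into phospholipids and ceramides, and T cells shift between these fates as they leave the resting state and divide.

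The table holds raw counts and column totals of 8363326 to 10288306. Few of its genes lie near no change, as in a table selected on the genotype difference: of 4118 genes tested, 20 had a log2 fold change within 0.1 of 0, and so had 0 of the 56 lipid enzyme genes. Counts of changed genes are high throughout, and those of any role or list are to be read against the shares of all tested genes, 41.1% higher and 27% lower. The WT and UTX TCD groups did not overlap for 85.8% of all tested genes, so groups apart in a role are to be read against that share. Levels are in CPM, here TMM-scaled and relative to the summed counts of the listed genes. A value such as 0.83 ± 0.09 is the log2 fold change of UTX TCD over WT ± its standard error, and genes are called at an adjusted p under 0.05 of edgeR's quasi-likelihood test (Benjamini-Hochberg over all genes tested). Kdm6a had 286, 281 and 281 CPM in WT and 188, 207 and 179 CPM in UTX TCD libraries, or 283 ± 2.96 to 191 ± 14.4 CPM (mean ± SD, n = 3 each; log2 fold change -0.56 ± 0.09, edgeR adjusted p = 0.0029). As the deleted part is not known here and all exons enter a gene's count, the remaining counts are no measure of remaining protein. Of 14 T cell markers, 5 were listed, with summed levels of 4346 to 4593 CPM in WT and 4937 to 5877 CPM in UTX TCD libraries. They went both ways: Thy1 went from 809 ± 85.1 to 56.8 ± 18.3 CPM (mean ± SD, -3.83 ± 0.23), Cd28 (0.83 ± 0.11), Cd2 (1.10 ± 0.23) and Bcl11b (0.53 ± 0.07) were higher, and Lck was not called (-0.13 ± 0.07). Cd4 and the Cd3 genes were not analysed here, so the labelled cell type could be checked only in part. Of other cell types, 0 of 25 myeloid, 0 of 11 erythroid and platelet, 3 of 13 B cell, 4 of 11 NK, 1 of 11 stromal and 1 of 2 CD8 T cell markers were listed. The NK markers were summed at 84.9 to 148 CPM in WT and 50.3 to 81.0 CPM in UTX TCD libraries, with Nkg7 lower (-2.02 ± 0.21), Klrd1 higher (1.40 ± 0.36) and Prf1 and Eomes not called (0.60 ± 0.26 and 0.13 ± 0.41). The stromal marker, Pecam1, was at 113 to 138 and 206 to 369 CPM. Their part in the results below was not tested. In bulk samples fewer cells of a type and less RNA per cell cannot be told apart.

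Lipid enzyme genes were mostly higher in UTX TCD cells. Of the 56 genes, all tested, 34 were higher, 10 were lower and 12 were not called, so that 60.7% were higher and 17.9% lower. Among all tested genes these shares were 41.1% and 27%. The median log2 fold change was 0.47 over the lipid enzymes and -0.15 over all tested genes. At least 2-fold changes were found for 5 higher genes (8.93%, against 12.9% of all genes) and 4 lower genes (7.14%, against 6.63%). The higher genes moved by moderate amounts, from 0.22 to 1.79 on the log2 scale with a median of 0.59, while the lower ones reached -3.64. The groups did not overlap for 49 of 56 genes, where 85.8% of all tested genes had groups apart. With leave-one-out fits the count of higher genes was 18, 14 and 23 without WT replicates 1, 2 and 3, and the lower ones were 5, 3 and 4. Among all tested genes, 812, 730 and 1195 were higher and 402, 351 and 544 lower in these fits, against 1692 and 1111 with all libraries. Without UTX TCD replicates 1, 2 and 3, 36, 33 and 29 lipid enzymes were higher and 12, 14 and 7 lower. The calls of 13 higher and 3 lower genes held whichever library was left out, a count that was not made over all genes. With all 21951 protein-coding genes counted as tests 12 and 3 were called, against 630 and 296 of all 4118 tested genes. The share of calls that were higher was 77.3% in the lipid enzymes and 60.4% in all genes, and with upper-quartile scaling these were 85.7% and 70.6%, and under gap-centred scaling (which moves the emptiest point of all fold changes, 0.07, to 0) 68.1% and 46.5%.

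**Figure D1:**
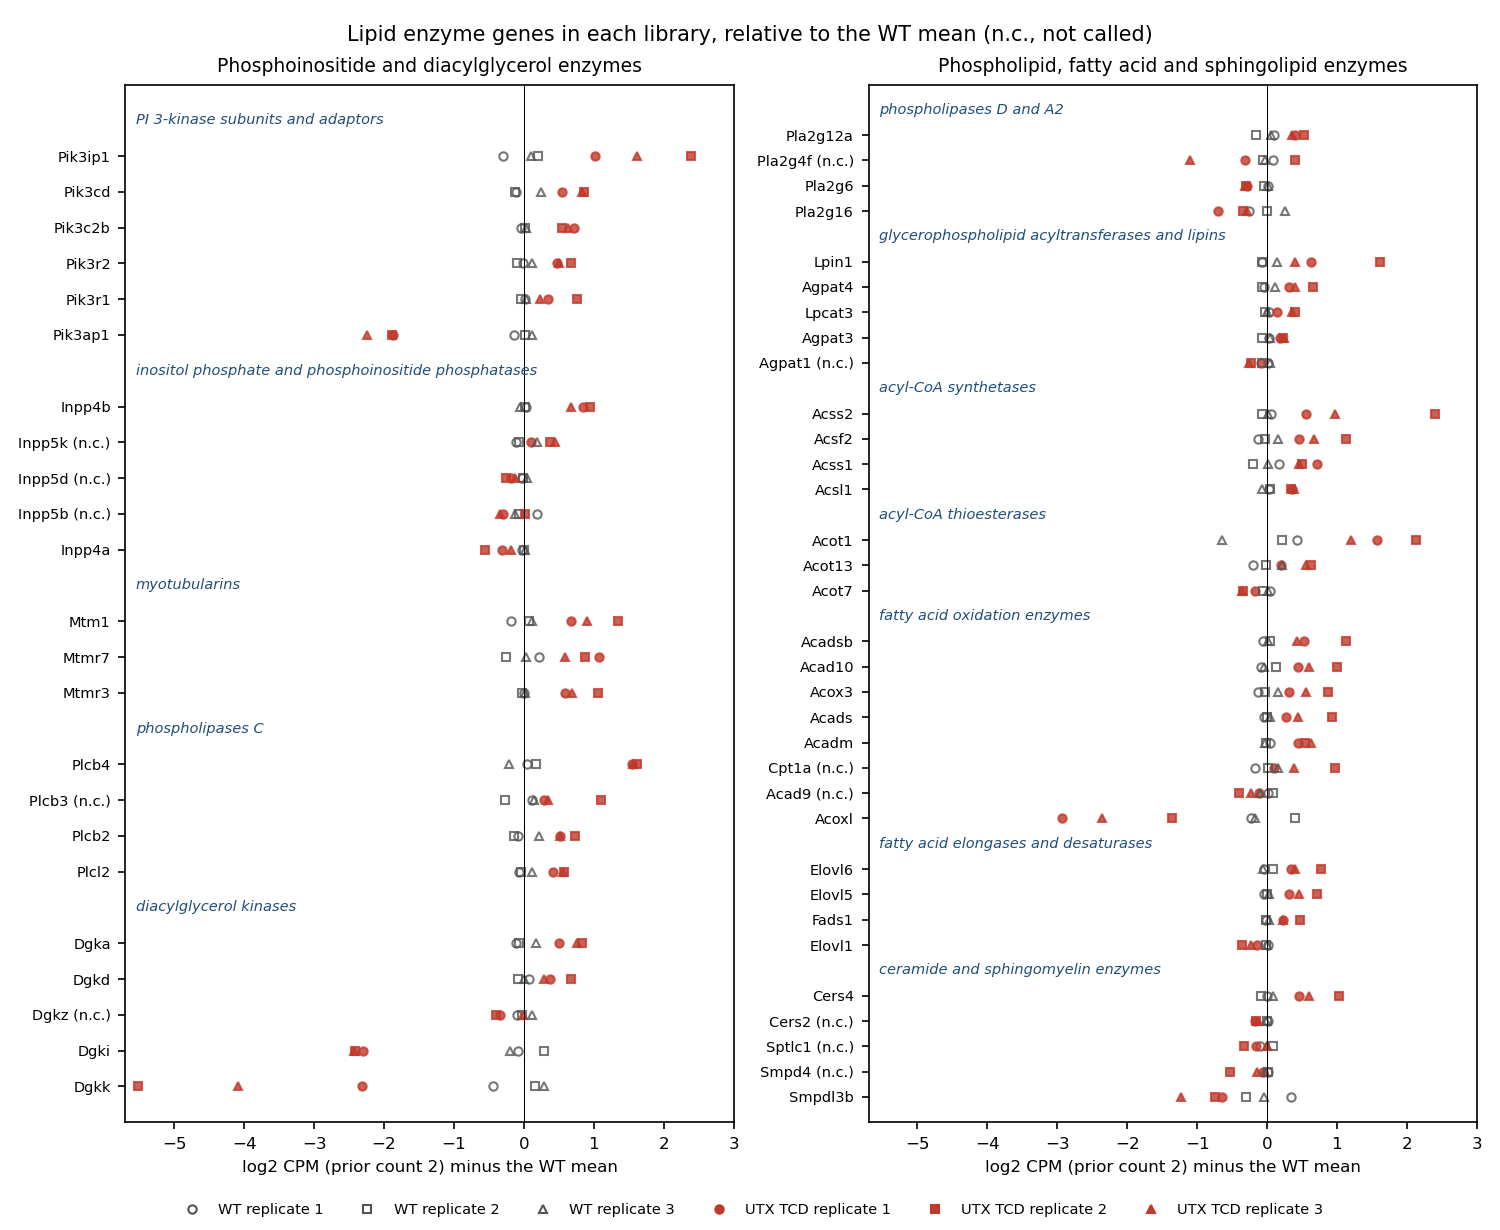
Level of each of the 56 lipid enzyme genes in each library, as log2 CPM (prior count 2) minus the mean of the 3 WT libraries. Rows are genes grouped by role, open grey symbols are WT and filled red symbols UTX TCD libraries, and n.c. marks the 12 genes not called; most red symbols lie right of 0, with Dgkk, Dgki, Acoxl and Pik3ap1 far to the left.

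**Figure D2:**
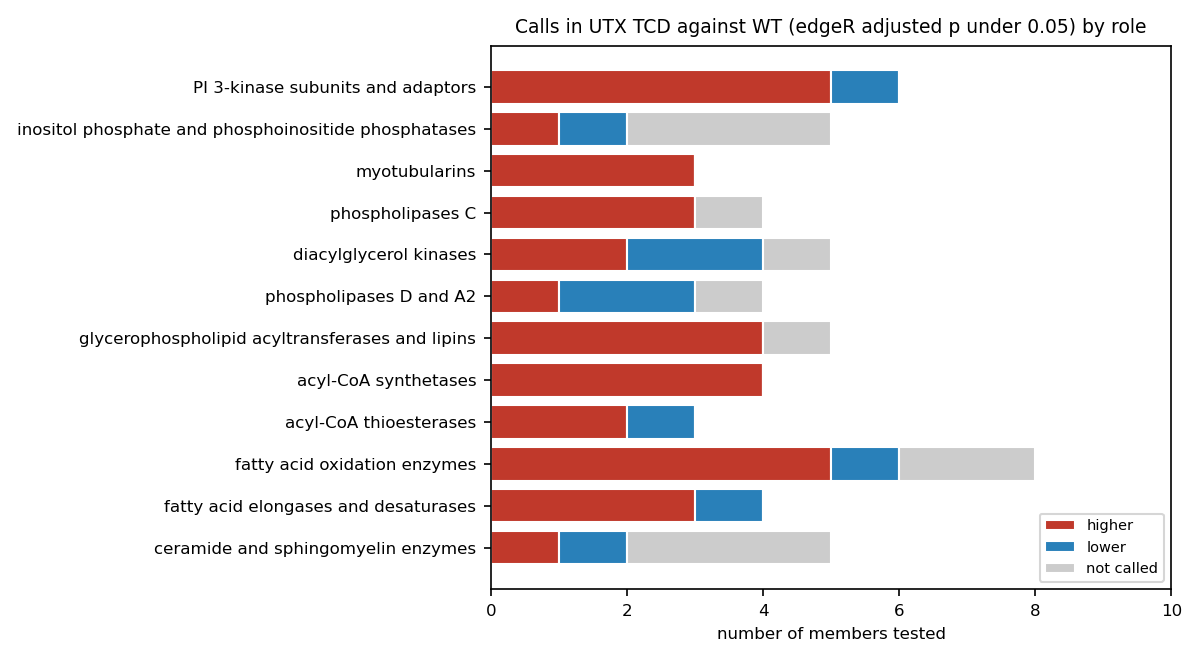
Number of tested lipid enzyme genes called higher, called lower or not called in UTX TCD against WT cells (x axis), by role (y axis). All 3 myotubularins and all 4 acyl-CoA synthetases were higher, while the phosphatases and the ceramide and sphingomyelin enzymes had 3 of 5 genes each without a call. Of all tested genes, 41.1% were higher and 27% lower.

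Genes of PI 3-kinase subunits and adaptors were called in every listed case, with 5 of 6 higher and 1 lower. Of all tested genes, 68.1% were called. Pik3cd, the catalytic subunit typical of leukocytes, had 753, 745 and 965 CPM in WT replicates 1, 2 and 3, and in the same order of replicates UTX TCD cells had 1189, 1480.3 and 1455 CPM. Every UTX TCD library lay above every WT library (0.74 ± 0.13, edgeR adjusted p = 0.0051). The regulatory subunit gene Pik3r2 had 73.2, 68.8 and 80.0 CPM in WT and 103, 118 and 105 CPM in UTX TCD libraries, again without overlap (0.55 ± 0.10, edgeR adjusted p = 0.0055). Pik3r1, the other listed regulatory subunit, rose by 0.46 ± 0.14, and Pik3c2b, a class II PI 3-kinase, by 0.64 ± 0.13. Pik3ip1, a membrane protein that binds and restrains PI 3-kinase, went from 9.01, 12.8 and 11.9 CPM to 22.7, 59.5 and 34.7 CPM, a 3.46-fold higher mean (1.79 ± 0.35, edgeR adjusted p = 0.0066). For Pik3ip1 the highest library was UTX TCD replicate 2, and the fold change was 1.35 without it. All calls of this group held with any library left out, except that of Pik3r1, which was lost without WT replicate 1, 2 or 3 and whose fold change was 0.28 without UTX TCD replicate 2.

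Pik3ap1 went the other way from the kinase subunits. It encodes an adaptor, best known from B cells, that links receptors to PI 3-kinase, and lies on chromosome 19 from 41272377 to 41385102 (ENSMUSG00000025017, GRCm38). Its level was 46.3, 51.4 and 55.4 CPM in WT and 13.7, 13.6 and 10.6 CPM in UTX TCD libraries, 4.03-fold lower on average (-2.01 ± 0.17, edgeR adjusted p = 5.2e-04). Every UTX TCD value lay far below every WT value. Of the 3 listed B cell markers, summed at 458 to 554 CPM in WT and 488 to 786 CPM in UTX TCD libraries, Fcer2a was lower (-0.89 ± 0.29) and Ighd and Ighm were not called (0.66 ± 0.27 and 0.38 ± 0.17). Their part in the Pik3ap1 difference was not tested.

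Among the inositol phosphate and phosphoinositide phosphatases, Inpp4b rose and Inpp4a fell. Both remove a phosphate from a PI 3-kinase product. Inpp4b, on chromosome 8 from 81342556 to 82127914 (ENSMUSG00000037940, GRCm38), had 1138, 1119.9 and 1069 CPM in WT and 2000.1, 2148 and 1776 CPM in UTX TCD libraries (0.83 ± 0.09, edgeR adjusted p = 0.0012). No library of one group came near the other group, and the call held with any library left out. Inpp4a had 144, 147 and 147 CPM in WT and 117, 99.1 and 129 CPM in UTX TCD libraries (-0.34 ± 0.11, edgeR adjusted p = 0.028). Its groups did not overlap, but its call was lost without WT replicate 1, 2 or 3 and with upper-quartile scaling. The ratio of these 2 genes within a library does not depend on the scaling between libraries. Per kilobase of exon, Inpp4b was 6.30, 6.07 and 5.79 times as abundant as Inpp4a in WT libraries and 13.6, 17.2 and 10.96 times in UTX TCD libraries (exact permutation test, two-sided p = 0.1, the smallest that 3 against 3 allow). This pair, and the ratios of other pairs below, were chosen after their values were seen, so the test is no support for a difference. Where both genes of a pair had groups apart in opposite directions, this p was fixed in advance.

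The phosphatases that act on another position of the inositol ring were not called. Inpp5d, which encodes SHIP1 and acts on the PI 3-kinase product in immune cells, was at -0.19 ± 0.08 (edgeR adjusted p = 0.059), Inpp5b at -0.20 ± 0.13 and Inpp5k at 0.31 ± 0.13. Their calls depended on the libraries and the settings. Without UTX TCD replicate 2 both Inpp5d and Inpp5b passed, at -0.16 and -0.33, and without UTX TCD replicate 1 Inpp5k passed, at 0.40. Inpp5d also passed under gap-centred scaling (-0.26), and Inpp5k under upper-quartile scaling (0.39) and with the replicate block (0.30). Without WT replicate 1 Inpp5b was at -0.11.

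The lipid enzyme genes were also read for short sequences near their starts, since the title of the series names hypoxia sensing. RefSeq promoters of GRCm38.p6 (250 bases before to 50 after a start) were matched by symbol for 49 of the 57 genes, with 65 promoters in all. The core of the hypoxia response element was searched on both strands in the form ACGTG and, counted separately, in the form with another first base, GCGTG. The form with A first was present in 21.5% of the 65 promoters, in 25.0% of 4112 promoters of all listed genes and in 19.6% of all 32851 promoters. The form with G first was present in 52.3%, 50.8% and 32.4%. A sterol response element, TCACNCCAC, was found in 2 of the 65 (3.08%, against 1.435% of promoters of listed genes and 1.24% of all promoters). A FOXO site, TGTTTAC, was found in 1 (1.54%, against 2.80% and 3.65%). Within the 250 bases before the start, either core was present for 18 of 29 higher genes, 5 of 9 lower genes and 7 of 11 genes not called. The shares were 62.1%, 55.6% and 63.6%. They are per gene and for either core, so they cannot be set against the shares per promoter above. This measure was not taken over all listed genes.

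The promoters of Inpp4b and Pik3ap1 are shown because these had the smallest p of the higher and of the lower genes among PI 3-kinase subunits, adaptors and the Inpp phosphatases, and both hold these letters. Shown are the 250 bases before the start, 5′ to 3′ on the strand of the gene, with matches to either core, on either strand, in capitals. Inpp4b (chr8:81342312-81342561, plus strand) has the form with A first 72 bases and the form with G first 51 bases before the start. Pik3ap1 (chr19:41385103-41385352, minus strand) has the form with A first on both strands at 172 and 171 bases, which overlap, and the form with G first at 92, 80 and 44 bases. A match describes letters only and is no binding site.
Inpp4b: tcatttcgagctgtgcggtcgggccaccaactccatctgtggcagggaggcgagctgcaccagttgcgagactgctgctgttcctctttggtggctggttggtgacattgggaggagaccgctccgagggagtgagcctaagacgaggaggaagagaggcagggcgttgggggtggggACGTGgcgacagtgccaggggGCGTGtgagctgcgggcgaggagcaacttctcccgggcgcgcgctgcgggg
Pik3ap1: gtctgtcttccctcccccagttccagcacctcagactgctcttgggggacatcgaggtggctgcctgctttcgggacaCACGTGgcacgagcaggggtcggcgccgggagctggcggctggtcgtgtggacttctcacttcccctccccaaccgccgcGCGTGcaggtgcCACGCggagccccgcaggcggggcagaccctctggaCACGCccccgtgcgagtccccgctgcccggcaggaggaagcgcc

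Myotubularins, which remove a phosphate from the phosphoinositides of endosomes, were higher in all 3 listed cases, against 41.1% of all tested genes. Mtmr3, by far the most abundant per kilobase of exon (43.6 CPM per kb in WT, against 2.38 for Mtmr7 and 0.764 for Mtm1), went from 330.0, 326 and 336 CPM to 498, 689.9 and 532 CPM (0.80 ± 0.13, edgeR adjusted p = 0.0036). Mtm1, the founding member of the family, had 9.31, 11.2 and 11.5 CPM in WT and 17.0, 27.3 and 20.0 CPM in UTX TCD libraries (1.01 ± 0.23, edgeR adjusted p = 0.011). Mtmr7 had 12.3, 8.79 and 10.7 CPM in WT and 22.3, 19.3 and 15.8 CPM in UTX TCD libraries (0.85 ± 0.22). The groups were apart for each of the 3 genes. Only the call of Mtmr7 was lost in a leave-one-out fit, that without WT replicate 2.

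Phospholipase C genes were higher in 3 of 4 listed cases and lower in 0, against 41.1% and 27% of all tested genes. The listed active enzymes are of the beta class, which responds to G protein-coupled receptors. Plcb4, which couples such receptors to calcium release, had the largest rise of the group, with 9.11, 9.98 and 7.61 CPM in WT and 26.4, 27.6 and 26.6 CPM in UTX TCD libraries (1.59 ± 0.18, 3.02-fold by the means, edgeR adjusted p = 0.0012). Plcb2 had 63.7, 61.1 and 77.9 CPM in WT and 96.3, 112 and 95.9 CPM in UTX TCD libraries (0.59 ± 0.13, edgeR adjusted p = 0.0086). Plcl2, a relative of phospholipase C without catalytic activity, had 213, 219 and 243 CPM in WT and 301, 334 and 332 CPM in UTX TCD libraries (0.52 ± 0.09, edgeR adjusted p = 0.0045). The groups were apart for all 3, and their calls held with any library left out. Plcb3 was at 0.62 ± 0.25 and just missed the threshold (edgeR adjusted p = 0.054), passed without UTX TCD replicate 1 or 3 (0.78 and 0.75), with DESeq2 (0.67) and with upper-quartile scaling (0.71), and was at 0.30 without UTX TCD replicate 2.

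Among diacylglycerol kinases, Dgka and Dgkd rose, the scarce Dgkk and Dgki fell and Dgkz was not called. These enzymes turn diacylglycerol into phosphatidic acid, and Dgka and Dgkz are the isoforms best known for damping T cell receptor signals. Dgka had 513, 527 and 623 CPM in WT and 782, 982 and 940.0 CPM in UTX TCD libraries, with every UTX TCD library above WT (0.70 ± 0.12, edgeR adjusted p = 0.0041). Dgkd rose by 0.46 ± 0.12 (edgeR adjusted p = 0.014), a call lost without WT replicate 2. Dgkz had 1049, 1109 and 1220.0 CPM in WT and 889, 851 and 1111 CPM in UTX TCD libraries. Its groups overlapped because UTX TCD replicate 3 lay among the WT values, and it was not called (-0.24 ± 0.12, edgeR adjusted p = 0.092). Without that replicate it was at -0.37 and passed, as it did with gap-centred scaling (-0.31). Per kilobase of exon, Dgkz stood above Dgka in each WT library and below it in each UTX TCD library. This order depends on the length used, that of all annotated exons of a gene merged. By CPM, without division by length, Dgkz stayed above Dgka in UTX TCD replicates 1 and 3 and was below it only in replicate 2. The ratio of Dgka to Dgkz was 0.643, 0.625 and 0.673 in WT and 1.16, 1.52 and 1.11 in UTX TCD libraries (exact permutation test, two-sided p = 0.1, the smallest possible).

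The 2 scarce diacylglycerol kinases were far lower in UTX TCD cells. Dgkk, on chromosome X from 6779306 to 6948363 (ENSMUSG00000062393, GRCm38), had 143, 200 and 209 counts in WT and 31, 2 and 9 counts in UTX TCD libraries, or 14.2, 21.7 and 23.7 CPM against 3.74, 0.211 and 0.938 CPM. Its fitted fold change was -3.64 ± 0.71 (edgeR adjusted p = 0.0065), and -3.12 without UTX TCD replicate 2, the library with 2 counts, and -5.07 without UTX TCD replicate 1, the library with 31. Dgki had 25, 30 and 20 counts in WT and 3, 3 and 3 counts in UTX TCD libraries (-2.97 ± 0.42, edgeR adjusted p = 0.0025). The ratio of summed counts, WT over UTX TCD, was 12.8 for Dgkk (95% interval 9.33 to 17.9, exact binomial, counting error only) and 8.11 for Dgki (4.05 to 18.4). Both calls held with any library left out. In WT cells these genes stood at 2.77 and 0.427 CPM per kb of exon, against 179.6 for Dgkz and 116 for Dgka.

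**Figure D3:**
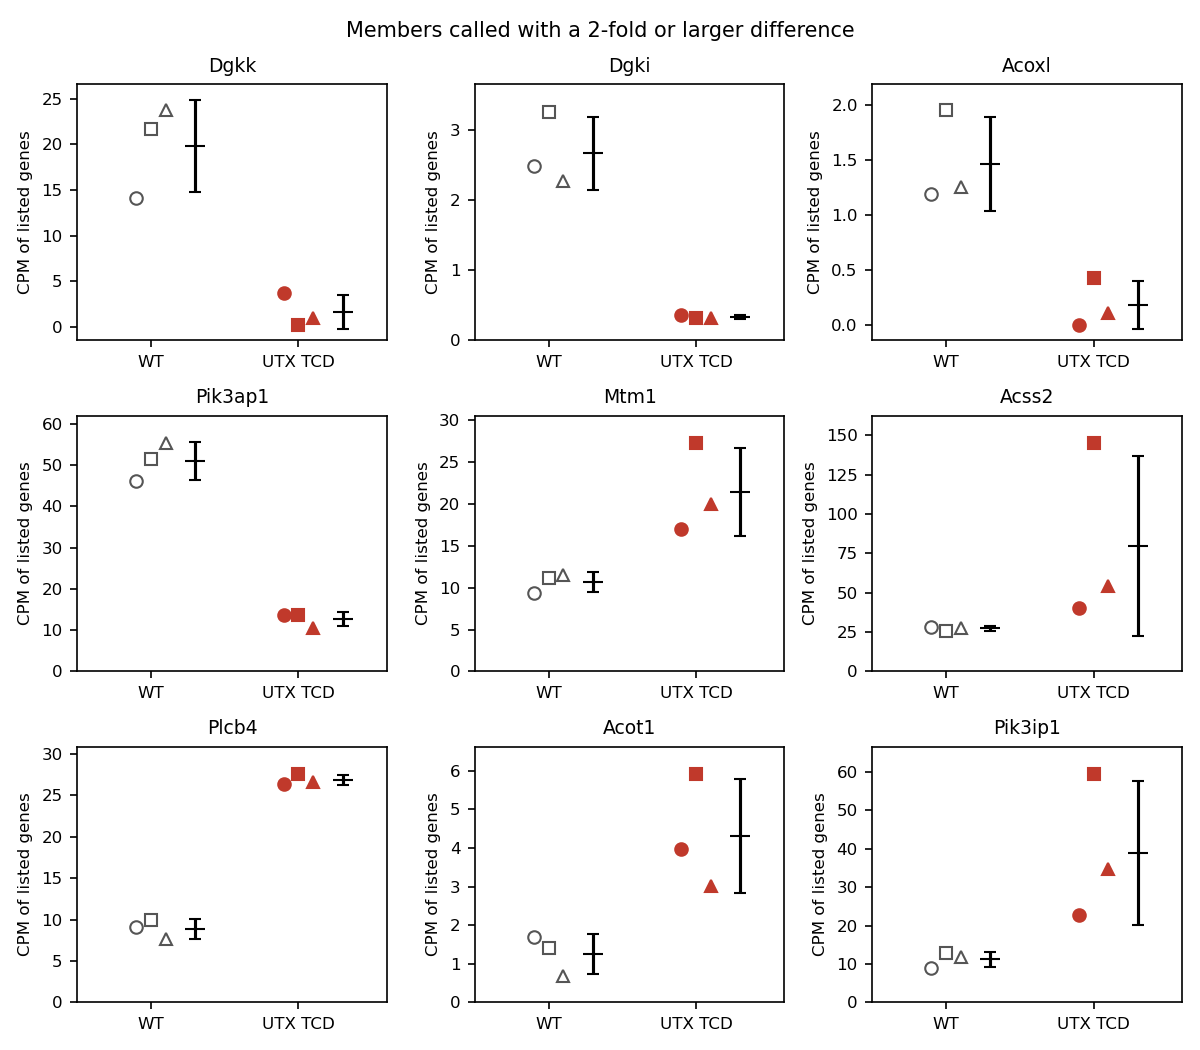
CPM of the listed genes (y axis) in each WT and UTX TCD library for the 9 lipid enzyme genes called with at least 2-fold change. The y axis starts at 0, or below 0 where the SD bar reaches below it (Dgkk and Acoxl). Circles, squares and triangles are replicates 1, 2 and 3, and bars show the mean ± SD of 3 libraries. Plcb4, Dgki and Pik3ap1 have tight UTX TCD values, while the square of UTX TCD replicate 2 stands far above its group for Acss2.

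Genes of phospholipid breakdown did not share a direction. The 4 listed phospholipases A2, which release a fatty acid from a phospholipid, had 1 higher and 2 lower genes. Pla2g12a, a secreted form, had 86.8, 73.0 and 84.2 CPM in WT and 107, 118 and 104 CPM in UTX TCD libraries (0.43 ± 0.10, edgeR adjusted p = 0.013). Pla2g6, a calcium-independent form, had 49.8, 47.8 and 49.8 CPM in WT and 40.1, 39.8 and 39.4 CPM in UTX TCD libraries (-0.31 ± 0.11, edgeR adjusted p = 0.039). Pla2g16 had 126, 149.7 and 180.3 CPM in WT and 91.9, 118 and 123 CPM in UTX TCD libraries (-0.45 ± 0.16, edgeR adjusted p = 0.039), with WT replicate 1 just above the highest UTX TCD value. Pla2g4f had 36.7, 33.2 and 33.8 CPM in WT and 27.6, 45.6 and 16.0 CPM in UTX TCD libraries and was not called (-0.22 ± 0.33). Its UTX TCD replicates lay on both sides of WT, so that it passed at -0.68 without UTX TCD replicate 2 and was at 0.082 without UTX TCD replicate 3. The call of Pla2g12a was lost without WT replicate 2. Pla2g6 lost its call without any 1 WT library or UTX TCD replicate 3, and Pla2g16 without WT replicate 2 or 3 or UTX TCD replicate 1, and both lost it with RLE or upper-quartile scaling. Pla2g6 lost it with DESeq2 and the replicate block too.

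Genes of phospholipid synthesis were higher in 4 of 5 cases, against 41.1% of all tested genes. Lpin1, a phosphatidic acid phosphatase, had 52.3, 52.0 and 60.6 CPM in WT and 85.3, 169 and 72.6 CPM in UTX TCD libraries (0.99 ± 0.30, edgeR adjusted p = 0.024). UTX TCD replicate 2 stood well above the other libraries of its group, and without it the fold change of Lpin1 was 0.52. Agpat4, an acyltransferase that makes phosphatidic acid, had 50.6, 49.6 and 56.2 CPM in WT and 64.6, 82.2 and 68.5 CPM in UTX TCD libraries (0.46 ± 0.13, edgeR adjusted p = 0.018). Lpcat3, which puts polyunsaturated fatty acids into phospholipids, had 149, 144 and 146 CPM in WT and 161, 194 and 187 CPM in UTX TCD libraries (0.31 ± 0.09). Agpat3 rose by 0.22 ± 0.08, and Agpat1 was at -0.19 ± 0.09 without a call, passing under gap-centred scaling (-0.26) and when UTX TCD replicate 1 was left out (-0.24). The groups were apart for all 5 genes, yet 0 of the 4 calls held without WT replicate 1 or without WT replicate 2, and only that of Agpat4 held without WT replicate 3. Without UTX TCD replicate 3 the calls of Agpat3 and Lpcat3 were lost too, and that of Agpat3 also with gap-centred scaling (0.15) and the replicate block (0.22).

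Acyl-CoA synthetases, which activate fatty acids or acetate, were higher in all 4 listed cases, against 41.1% of all tested genes. Acss2, which makes acetyl-CoA from acetate in cytosol and nucleus, had 28.4, 25.8 and 27.6 CPM in WT and 40.2, 145 and 54.0 CPM in UTX TCD libraries (1.55 ± 0.44, edgeR adjusted p = 0.020). The groups did not overlap, but UTX TCD replicate 2 was far above the rest, and the fold change was 0.78 without it (edgeR adjusted p = 0.0058). Of its exon bases 9.12% are shared with genes on the opposite strand, Acss2os, Ggt7 and Gss. Such shares were of like size for Lpcat3 (10.2%), Acsl1 (9.91%) and Cers4 (8.97%), and smaller for the other lipid enzyme genes. Acsf2 had 16.7, 17.9 and 20.5 CPM in WT and 25.3, 40.5 and 29.5 CPM in UTX TCD libraries (0.79 ± 0.21, edgeR adjusted p = 0.017). Acsl1, a long-chain synthetase, had 41.2, 41.8 and 38.5 CPM in WT and 52.1, 51.4 and 53.1 CPM in UTX TCD libraries, tight in both groups (0.37 ± 0.11, edgeR adjusted p = 0.023). Acss1, the mitochondrial acetate enzyme, rose by 0.56 ± 0.19. Of these 4 calls, 0 were left without WT replicate 1, 0 without WT replicate 2 and 1, Acsf2, without WT replicate 3. Without UTX TCD replicate 3 those of Acsl1 and Acss1 were lost, and without UTX TCD replicate 1 that of Acss1.

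Acyl-CoA thioesterases, which reverse that activation, had 2 higher and 1 lower gene. Acot1 had 17, 13 and 6 counts in WT and 33, 56 and 29 counts in UTX TCD libraries (1.75 ± 0.44, edgeR adjusted p = 0.014), and reads of this gene may be shared with its close relative Acot2, so its value is uncertain. Acot7, a cytosolic form, had 376, 348 and 367 CPM in WT and 322, 285 and 284 CPM in UTX TCD libraries (-0.29 ± 0.09, edgeR adjusted p = 0.023). It was the most abundant thioesterase per kilobase of exon, at 171 CPM per kb in WT, against 34.4 for Acot13 and 0.321 for Acot1. Acot13 had 22.0, 25.1 and 29.6 CPM in WT and 29.2, 39.4 and 37.4 CPM in UTX TCD libraries, and was called higher although its groups overlapped (0.47 ± 0.18, edgeR adjusted p = 0.0499). Acot1 lost its call without WT replicate 2. Acot7 lost it without any 1 WT library or UTX TCD replicate 3. Acot13 kept it in 1 of 6 leave-one-out fits, that without UTX TCD replicate 1, and lost it with gap-centred scaling.

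Fatty acid oxidation genes were higher in 5 of 8 cases and lower in 1, against 41.1% and 27% of all tested genes. The mitochondrial acyl-CoA dehydrogenases for medium and short chains were among the higher genes. Acadm, for medium chains, had 92.6, 88.8 and 88.5 CPM in WT and 122, 132 and 139.8 CPM in UTX TCD libraries, without overlap and with a call that held in every leave-one-out fit (0.55 ± 0.09, edgeR adjusted p = 0.0036). Acadsb, for short branched chains, had 37.3, 39.9 and 39.3 CPM in WT and 55.9, 85.5 and 52.4 CPM in UTX TCD libraries (0.73 ± 0.19, edgeR adjusted p = 0.016). Acads rose by 0.58 ± 0.17, Acad10 by 0.72 ± 0.24 and the peroxisomal oxidase gene Acox3 by 0.60 ± 0.17. Without UTX TCD replicate 2 the values of Acadsb and Acads were 0.47 and 0.35. The calls of Acadsb and Acox3 were lost without WT replicate 1 or 2, that of Acads without any 1 WT library, and that of Acad10 also without UTX TCD replicate 3. Acoxl, an oxidase-like gene, had 12, 18 and 11 counts in WT and 0, 4 and 1 counts in UTX TCD libraries, a ratio of summed counts of 7.98, WT over UTX TCD (95% interval 3.15 to 25.9, counting error only; fitted -2.92 ± 0.76, edgeR adjusted p = 0.016). The fitted value of Acoxl was -4.42 without UTX TCD replicate 2, and its call was lost without WT replicate 2.

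Cpt1a, the gateway for long-chain fatty acids into mitochondria, was not called. It had 72.7, 82.5 and 91.3 CPM in WT and 87.7, 160.1 and 107 CPM in UTX TCD libraries (0.53 ± 0.21, edgeR adjusted p = 0.056). UTX TCD replicate 1 lay within the WT values and replicate 2 far above them. The fold change of Cpt1a was 0.24 without UTX TCD replicate 2 and 0.71, past the threshold, without replicate 1, and it passed with DESeq2 (0.57) and the replicate block (0.49). Acad9, better known for building respiratory complex I, was at -0.25 ± 0.10 (edgeR adjusted p = 0.057) and passed under gap-centred scaling (-0.32) and when UTX TCD replicate 1 was left out (-0.31).

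Elongases and desaturases had 3 higher genes and 1 lower gene of 4, against 41.1% and 27% of all tested genes. Elovl5, which lengthens polyunsaturated fatty acids, had 371, 382 and 388 CPM in WT and 473, 625 and 524 CPM in UTX TCD libraries, and its call held with any library left out (0.51 ± 0.11, edgeR adjusted p = 0.0090). Elovl6, which lengthens saturated and monounsaturated fatty acids, had 140.0, 153 and 138 CPM in WT and 183, 245 and 189 CPM in UTX TCD libraries (0.52 ± 0.13, edgeR adjusted p = 0.013). Fads1, a desaturase of polyunsaturated fatty acids, had 149.6, 149 and 153 CPM in WT and 176, 208 and 177 CPM in UTX TCD libraries (0.31 ± 0.09, edgeR adjusted p = 0.022). The elongase gene of very long saturated chains, Elovl1, was lower (-0.24 ± 0.09, edgeR adjusted p = 0.040). Every one of the 4 had groups apart, as had 85.8% of all tested genes. Per kilobase of exon, Elovl5 was 1.13, 1.20 and 1.20 times as abundant as Elovl1 in WT and 1.61, 2.49 and 1.89 times in UTX TCD libraries (exact permutation test, two-sided p = 0.1, the smallest possible). Elovl6 lost its call without WT replicate 1, and Fads1 without any 1 WT library. Elovl1 lost it without any 1 WT library or UTX TCD replicate 3, and with RLE or upper-quartile scaling, DESeq2 or the replicate block.

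Ceramide and sphingomyelin enzymes had 1 higher and 1 lower gene of 5. Cers4, a ceramide synthase, had 29.5, 27.9 and 31.6 CPM in WT and 40.6, 60.5 and 45.0 CPM in UTX TCD libraries (0.72 ± 0.17, edgeR adjusted p = 0.013). Smpdl3b, a membrane-anchored relative of acid sphingomyelinase, had 11.9, 7.59 and 9.08 CPM in WT and 5.90, 5.50 and 3.85 CPM in UTX TCD libraries (-0.91 ± 0.29, edgeR adjusted p = 0.027). Cers2, the synthase of very long chain ceramides and far more abundant than Cers4 (117 against 2.42 CPM per kb of exon in WT), was at -0.15 ± 0.07 without a call, although its groups were apart. The ratio of Cers4 to Cers2 per kilobase of exon was 0.0203, 0.0193 and 0.0223 in WT and 0.0318, 0.0469 and 0.0341 in UTX TCD libraries (exact permutation test, two-sided p = 0.1, the smallest possible). Sptlc1, a subunit of the enzyme that starts sphingolipid synthesis, was at -0.16 ± 0.11 and the sphingomyelinase gene Smpd4 at -0.23 ± 0.12, both without a call. Cers4 lost its call without WT replicate 2 and Smpdl3b without any 1 WT library or UTX TCD replicate 3. Leaving out UTX TCD replicate 2 (-0.15) or using gap-centred scaling (-0.22) put Cers2 past the threshold, and leaving out UTX TCD replicate 1 did so for Smpd4 (-0.32). With replicate 2 of UTX TCD left out, Smpd4 was at -0.11 and Sptlc1 at -0.09.

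Gpatch4, the gene taken in by its symbol only, had 322, 312 and 308 CPM in WT and 256, 166 and 228 CPM in UTX TCD libraries and was lower (-0.54 ± 0.15, edgeR adjusted p = 0.020), a call lost without WT replicate 1 or 2. With it, 34 of the 57 genes were higher and 11 lower.

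UTX TCD replicate 2 was the extreme library for most of the higher lipid enzymes. It held the highest of the 3 UTX TCD values in 28 of the 34 higher genes (82.4%) and in 71.3% of all 1692 higher genes. The median difference of the 34 genes from the WT mean, in log2 CPM, was 0.46, 0.80 and 0.56 in UTX TCD replicates 1, 2 and 3, and over all higher genes it was 0.50, 0.85 and 0.60. In the 10 lower lipid enzymes it was -0.68, -0.65 and -0.79, while over all lower genes it was -0.36, -0.64 and -0.40, with replicate 2 the lowest UTX TCD library in 779 of 1111. Without replicate 2 the fold change was smaller for 31 of the 34 higher genes, their median was 0.51, and 33 of the 34 still passed, as did all 10 lower genes. Acot13 was the one that did not pass. The log2 fold change shrank by more than 1.5 times for 5 genes, Acss2, Lpin1, Acads, Acadsb and Pik3r1. Markers of regulatory T cells, of which 6 of 7 were listed, were summed at 2334 to 2544 CPM in WT libraries. In UTX TCD cells their sum was 3619 CPM (replicate 1), 4686 CPM (replicate 2) and 3184 CPM (replicate 3). Il2ra made up most of that sum (1945 ± 73.2 to 3098 ± 606 CPM), Foxp3 (5.45 ± 0.892 to 27.9 ± 5.33 CPM) and Ikzf2 (10.8 ± 4.39 to 64.5 ± 31.1 CPM) rose by larger folds, Gpr83 and Tnfrsf18 were higher (1.71 ± 0.14 and 0.59 ± 0.22), and Nrp1 was lower (-1.47 ± 0.15). Cd8b1, the listed CD8 T cell marker, was at 11.6 to 14.5 CPM in WT and at 31.5, 56.2 and 40.8 CPM in the same order. Their part in the lipid enzyme differences was not tested.

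**Figure D4:**
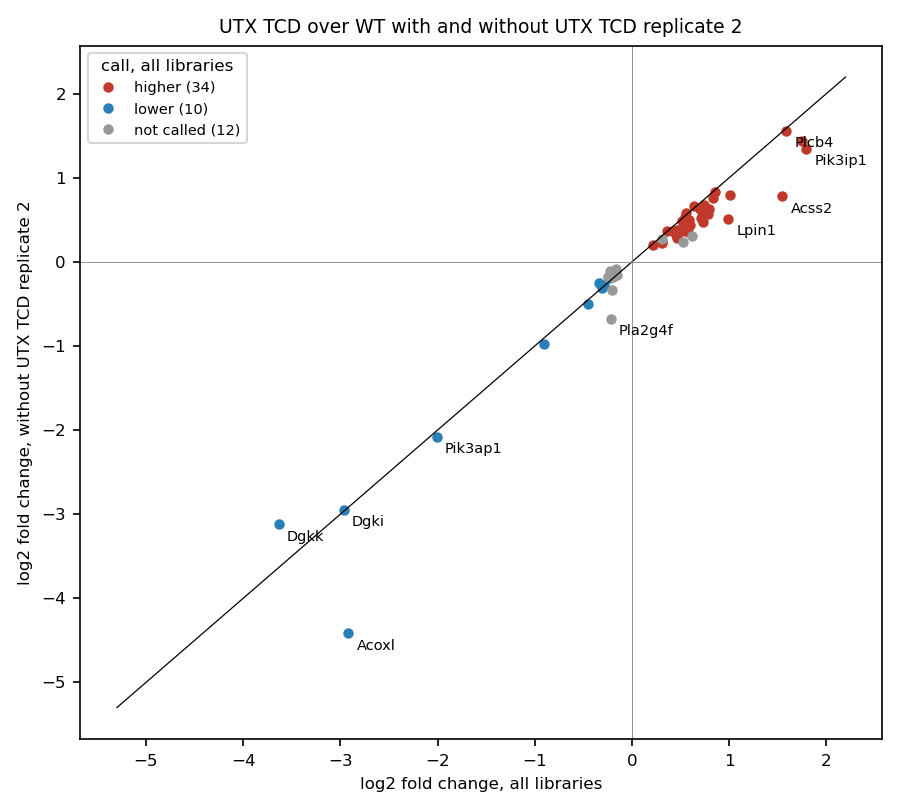
Log2 fold change (UTX TCD over WT) of the 56 lipid enzyme genes with all libraries (x axis) and without UTX TCD replicate 2 (y axis); the diagonal marks equal values and colours the call with all libraries. Most higher genes lie below the diagonal, Acss2 goes from 1.55 to 0.78 and Pla2g4f goes from -0.22 to -0.68.

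Genes that work with these enzymes were read from 4 lists of pathway partners. The lists were written with results of these data known, and partners without a row in the table were not analysed. Of 66 partners of phosphoinositide signalling 23 could be tested, and 17 were higher and 1 lower, with a median log2 fold change of 0.44. As above, 41.1% of all tested genes were higher and 27% lower. Rasgrp1 and Rasgrp2, which are recruited by diacylglycerol and activate Ras-family proteins, rose by 0.84 ± 0.12 and 2.82 ± 0.30. Itpr3, a receptor for the inositol phosphate that phospholipase C releases, went from 165, 167 and 193 CPM to 249, 279 and 304 CPM (0.66 ± 0.11), and Pitpnc1, a phosphatidylinositol transfer protein, rose by 0.89 ± 0.17. Of 38 sphingolipid partners 14 could be tested, and 11 were higher and 1 lower (median 0.49). Ugcg, the glucosylceramide synthase, had 419, 423 and 427 CPM in WT and 682, 733 and 688 CPM in UTX TCD libraries (0.73 ± 0.07). S1pr1, the sphingosine phosphate receptor that guides T cells out of lymphoid tissue, had 8.82, 9.65 and 14.5 CPM in WT and 31.6, 81.3 and 87.7 CPM in UTX TCD libraries (2.61 ± 0.40), and Hexa, which encodes a subunit of a lysosomal enzyme that degrades gangliosides, rose by 0.62 ± 0.11. The calls of these 7 genes held under every alternative run. With any 1 library left out, the phosphoinositide partners had 8 to 17 higher and 0 to 5 lower genes, and the sphingolipid partners 6 to 11 and 1 to 3.

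The other partner lists went both ways, where 41.1% of all tested genes were higher and 27% lower. Of 59 partners of glycerophospholipid and neutral lipid synthesis 25 could be tested, and 8 were higher and 8 lower (median -0.23). Mboat2, an acyltransferase of lysophospholipids, rose by 1.56 ± 0.29, Cept1, which completes phosphatidylcholine and phosphatidylethanolamine, by 0.42 ± 0.09, and Gpd1l by 0.42 ± 0.09, while Abhd12, a lysophospholipid hydrolase, fell by 0.38 ± 0.09. Of 57 partners of fatty acid synthesis and oxidation 21 could be tested, and 10 were higher and 5 lower (median 0.31). The oxidation enzyme genes Hadhb and Eci2 rose by 0.38 ± 0.09 and 0.60 ± 0.13, and the peroxisomal transporter gene Abcd3 and the nuclear receptor gene Rxra fell by 0.83 ± 0.13 and 1.01 ± 0.21. Gpd1l lost its call without WT replicate 2, and Abhd12 and Hadhb without WT replicate 1. With all 21951 protein-coding genes counted as tests, Abhd12, Hadhb and Eci2 were not called. The lower partners of lipid synthesis numbered 15 with gap-centred scaling, 4 with upper-quartile scaling and 1 to 10 with any 1 library left out. Of fatty acid partners 2 to 11 were higher and 2 to 7 lower with any 1 library left out.

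The higher and lower genes had similar median levels. The median WT level was 60.7 CPM over the 34 higher, 50.1 CPM over the 10 lower and 241 CPM over the 12 lipid enzymes not called. A WT mean above 100 CPM was found for 4 of the 10 lower genes, Acot7 and Inpp4a among them, and for 12 of the 34 higher ones.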

How the data were processed

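RNA of 3 WT and 3 UTX TCD libraries was measured. The deposited values are raw counts per gene. The authors made them with HISAT2 and HTSeq on mm10, after FastQC, per the submitters' processing notes; the sources used here give no versions, annotation or strand setting, so reads of overlapping genes on opposite strands may be mixed. The rule by which the 4162 genes were listed is not given either. The scarcity of fold changes near 0 is that of a table selected on the genotype difference, so p-values and shares of calls hold for the listed genes only, and the column totals are not library depths.

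Counts were tested with edgeR 4.0.16 in R 4.3.3 (quasi-likelihood F test, genotype only, minimum count 10, minimum total 15, TMM), on the whole table, and all 57 genes passed the filter. Adjustment over listed genes counts too few tests. Standard errors are the absolute log2 fold change over the square root of F. Promoters from RefSeq were read in place of protein features. Coordinates and exon lengths are from GENCODE M21 (GRCm38), the length being that of all annotated exons of a gene merged. Alternatives were RLE, upper-quartile and gap-centred scaling, DESeq2 1.42.0, limma-voom 3.58.1, no low-count filter, a replicate block, adjustment over all 21951 protein-coding genes and leaving out each library. Gap-centred scaling sets the emptiest point of the fold changes (0.07) to 0. The fits were tested on simulated data.

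Values in every library are given for genes called with at least 2-fold change and groups apart, and for the 3 called genes of smallest p in each role; of each partner list the 4 called genes of smallest p are named, except 1 that is not reported here; other genes, or values of others in every library, were chosen after their values were seen. Genes and lists were chosen with earlier results of these data known. Mice are the replicates. Between replicates, chi-square per degree of freedom was 7.01 to 11.6 in WT, so none was a duplicate. UTX TCD replicates 1 and 3 were at 19.7, and replicate 2 was at 86.7 against replicate 1 and 81.5 against replicate 3. UTX TCD replicate 2 thus differed most from its group over the whole table.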

Additional observations from a re-analysis of the deposited data

How the results depend on the processing

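Among the 56 lipid enzyme genes no fold change changed sign under any alternative, except that of Pla2g4f, which was not called, at 0.082 without UTX TCD replicate 3 (-0.68, past the threshold, without replicate 2). Leaving out 1 library gave 14 to 36 higher and 3 to 14 lower lipid enzymes, 730 to 1824 higher and 351 to 1458 lower genes in all, and 20 to 47 higher and 5 to 24 lower partner genes (46 and 15 with all libraries); Kdm6a stayed called at -0.63 to -0.52. With every protein-coding gene counted as a test, 12 lipid enzymes were higher and 3 lower, 630 and 296 of all genes, and 17 and 3 partner genes. Lower counts with upper-quartile scaling were 6 lipid enzymes, 725 genes and 9 partner genes, and with gap-centred scaling 15 lipid enzymes, 1806 genes and 30 partner genes. The cause was not tested. Replicate numbers are shared between the genotypes. Deviations of same-numbered libraries from their group means had r = 0.28, -0.28 and 0.18 for numbers 1, 2 and 3. Between libraries of different numbers r was -0.42 to 0.20. With 3 libraries per group, centred within the group, these values depend on each other and cannot show whether the samples were paired. With the replicate block 35 lipid enzymes were higher and 8 lower. Calls of 12 higher and 3 lower lipid enzymes held under all 14 alternatives, a count that was not made over all genes. At under 4 counts in a library, as for Dgki, Dgkk and Acoxl in UTX TCD cells, counting error limits how well the size of the fold change is known. For Dgkk the UTX TCD libraries also differed widely, with 31, 2 and 9 counts. Its fitted value was -5.07 to -3.12 with any 1 library left out, a spread that the interval for counting error does not cover.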
